A study of Mus musculus with 16 samples.

Results

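The H2 genes are the mouse major histocompatibility complex genes, the family whose products display peptides and other ligands on the cell surface to lymphocytes. They were taken here as every protein-coding gene of GENCODE vM21 whose name starts with H2-, which gave 34 of 21938 protein-coding genes, all on chromosome 17 of GRCm38. By their names 24 are class I genes, 9 are class II genes, and 1, H2-Ke6, is a hydroxysteroid dehydrogenase gene that carries the name because it lies in the region. Open chromatin had been profiled with ATAC-seq, an assay that tags accessible DNA by transposase insertion, in spleen, lung, liver, kidney, heart, muscle and the white and brown adipose depots of male C57BL/6 mice, either fed or fasting. Each of the 16 libraries was made from tissue pooled over the mice of a state, and all tissues of a state came from the same mice. There is therefore 1 library for each tissue and state and no replicate, and whole tissue was used, so that a lower share of a cell type and less open DNA in each of its cells cannot be told apart.

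Class I molecules pair with beta-2 microglobulin and present peptides made in the cell to CD8 T cells or to natural killer cells, and the classical genes H2-K1 and H2-D1 are known to be used by nearly all nucleated cells. Class II molecules are heterodimers that present peptides from taken-up proteins to CD4 T cells, and are known for B cells, dendritic cells and macrophages. Their genes share a promoter layout of an X box followed by a Y box, bound by the RFX complex and NF-Y, on which the class II transactivator Ciita acts.

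The measure was the percentile of the strongest MACS2 peak, by p-value within its own library's list, among peaks whose summit lay within 3000 bp of an annotated start of the gene. It runs from 0 where no such peak was listed to 100 for the strongest peak of the list, and it compares ranks and not amounts. The lists held 298996 to 299529 rows. Their lowest −log10 p ran from 2.48 in fasting to 7.11 in fed brown adipose. A value of 0 is therefore not the same cutoff in every library, and it does not show that the DNA was closed. Expected background tags, which are proportional to depth, ranged from 2.80 in fed liver to 12.8 in fed brown adipose. In each of the 16 libraries 70.7% to 78.6% of all protein-coding genes had a promoter peak, and their median percentile was 86.3 to 91.3. Of the 7 marker lists for non-lymphoid tissues, 6 had their highest mean percentile in the labelled tissue. The white adipose list was the exception, with a mean of 93.1 in brown and 90.03 in white adipose. No marker of the labelled tissue was without a peak there.

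The promoter sequences are shown first because 7 of the 9 class II genes hold a match to the layout described above. RefSeq promoter windows (GRCm38.p6, 250 bases before to 50 after a start) were given for 31 of the 34 genes, and not for H2-Ab1, H2-Q1 and H2-T24. An X box core of GCAAC, then 24 to 29 bases, then the Y box GATTGG, on either strand, was found in 44 of 32851 windows (0.134%), and 5 of them were class II H2 genes. With the core shortened to AAC, 437 windows (1.33%) matched, and H2-DMb1 and H2-DMb2 joined. H2-DMa, whose window was given, matched neither pattern. The letters were set after these promoters had been read, and a match is a description of the sequence only. In the stretches below, 5′ to 3′ on the gene's strand, capitals mark the X core and the Y box.
H2-Aa: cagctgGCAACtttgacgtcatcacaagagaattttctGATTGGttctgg
H2-Eb1: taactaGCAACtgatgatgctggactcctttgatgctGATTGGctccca
H2-Eb2: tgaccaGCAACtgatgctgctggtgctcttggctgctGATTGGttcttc
H2-Oa: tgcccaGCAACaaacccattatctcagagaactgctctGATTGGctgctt
H2-Ob: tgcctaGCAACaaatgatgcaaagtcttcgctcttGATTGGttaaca
H2-DMb1: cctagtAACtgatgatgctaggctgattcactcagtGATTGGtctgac
H2-DMb2: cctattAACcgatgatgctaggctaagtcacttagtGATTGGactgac
They lie at chr17:34287861-34287910 (minus strand), chr17:34305770-34305818, chr17:34325537-34325585, chr17:34092297-34092346, chr17:34238812-34238858, chr17:34153093-34153140 and chr17:34145122-34145169 (plus strand), in that order. The spacer between the capitals was 27, 26, 26, 27, 24, 27 and 27 bases. The X core starts 76 to 132 bases before the RefSeq start. By the GENCODE starts used for the measure, the H2-DMb1 and H2-DMb2 stretches lie after the gene's 5′-most start and that of H2-Oa spans it.

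How often a library listed a summit at these boxes differed from gene to gene. A summit lay within 250 bp of the box centre in all 16 libraries for H2-Aa and in 15 for H2-DMb1, but in 14 for H2-Eb1, 9 for H2-Ob, 8 for H2-DMb2, 6 for H2-Eb2 and 4 for H2-Oa. The 4 libraries of H2-Oa were those of spleen and lung in both states. For H2-Eb1 the 2 libraries without such a summit were those of liver.

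Among the class II genes, 7 of 9 had a promoter peak in all 16 libraries, and the other two were H2-Eb2 and H2-Oa. Among the class I genes 9 of 24 did, and 4 (H2-M1, H2-M10.1, H2-M10.3 and H2-M11) had a peak in no library. Over all protein-coding genes the shares were 61.4% in all 16 libraries and 10.1% in none. The median over the 9 class II genes was 92.3 and 93.0 in fed and fasting spleen, 91.1 and 88.4 in lung, and 88.0 and 90.9 in white adipose. It was lowest in liver, at 38.4 in fed and 51.5 in fasting mice. The class I median over 24 genes lay between 0 and 49.98 in the 16 libraries, where 9 to 17 of the 24 genes had a peak.

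**Figure D1:**
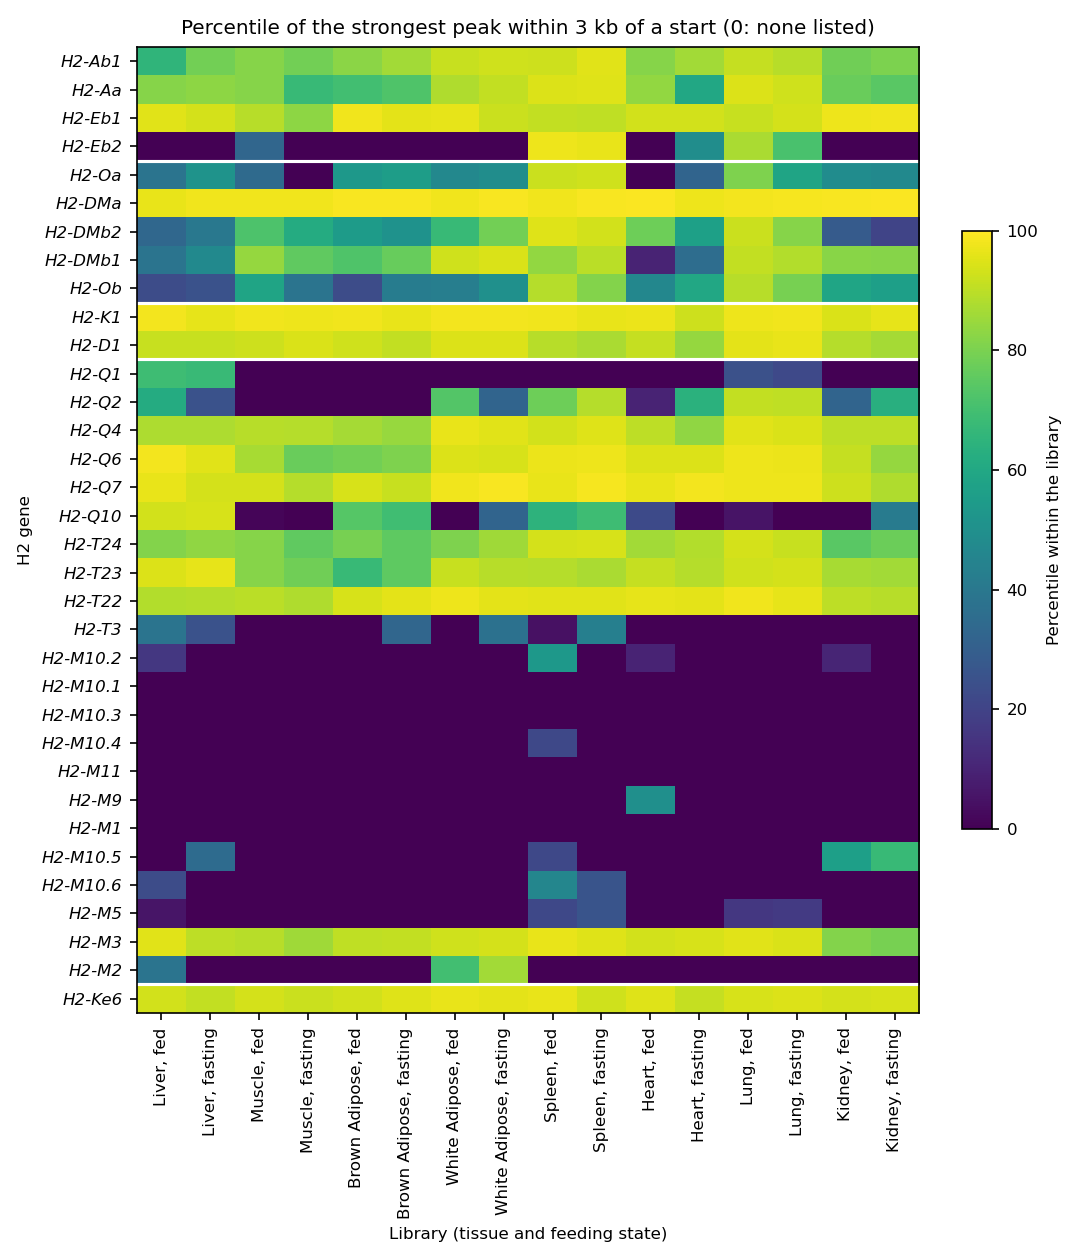
Percentile (colour, 0 to 100, 0 where no peak was listed) of the strongest peak within 3 kb of a start for 34 H2 genes (rows, grouped as class II classical, class II non-classical, class I classical, class I non-classical and H2-Ke6) in 16 libraries (columns, tissue and state). H2-DMa and H2-K1 are bright throughout, H2-Eb2 is bright in spleen and lung, and 4 genes have no peak in any library.

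The median over the 9 class II genes was highest in spleen, though not every gene ranked highest there. Against the mean of the other 7 tissues, 7 of 9 class II genes were higher and none lower (limma, adjusted p under 0.05 over all 19719 genes with a peak in at least 1 library). Over all genes 16% were called higher and 18.2% lower in spleen, and the median difference of the 9 class II genes was 17.4 percentile points. In this fit the spread comes from the fed and fasting libraries of each tissue after a common shift between states, so that it describes these pools of mice.

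H2-Eb2, a class II beta chain gene (chr17:34325665-34341412), had the largest spleen difference of the 9. Its percentile was 97.5 in fed and 96.8 in fasting spleen, and lung was at 87.3 and 71.2. Outside these tissues it was 33.2 in fed muscle and 49.2 in fasting heart, and the other 10 libraries listed no peak. The summit held 114 and 102 tags in spleen and 105 and 50 in lung, but 21 in fed muscle and 19 in fasting heart. The spleen and lung libraries were thus apart from the rest, and the difference of spleen was 79.97 ± 11.3 points (SE, limma adjusted p = 0.000419).

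The classical alpha and beta chain genes H2-Aa and H2-Ab1 had a listed peak within 3000 bp of a start in every library, with smaller differences. H2-Aa was at 94.7 in fed and 95.0 in fasting spleen, and lung was at 94.8 and 92.7. In the 12 libraries of the other 6 tissues it ran from 60.0 through a median of 79.4 to 90.9, below both spleen and lung. H2-Ab1 was at 92.3 and 95.6 in spleen, against 65.6 to 92.7 in the 14 other libraries, which overlapped. In both spleen libraries the strongest H2-Ab1 peak lay inside the gene and not at its 5′-most start. The differences were 14.997 ± 4.64 for H2-Aa (limma adjusted p = 0.0292) and 10.7 ± 2.72 for H2-Ab1 (limma adjusted p = 0.0118). H2-Eb1 was not called in spleen, where it was at 90.7 and 90.4 against 82.8 to 97.8 elsewhere. Most of these H2-Eb1 values came from a peak inside the gene, described below. With starts of protein-coding transcripts alone, 8 class II genes were called higher in spleen in place of 7.

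H2-Oa and H2-Ob encode H2-O, which restrains the peptide exchange factor H2-DM and is known for B cells. H2-Oa was at 91.8 in fed and 92.7 in fasting spleen, and lung was at 80.8 and 58.6. The remaining 12 libraries ran from 0 (fasting muscle and fed heart) through a median of 47.0 to 55.5, so that spleen and lung lay above all others. H2-Ob was at 88.9 and 81.5 in spleen and 89.2 and 79.6 in lung, against 23.4 to 60.0 with a median of 44.6 in the remaining 12. The spleen differences were 49.7 ± 10.2 for H2-Oa (limma adjusted p = 0.00390) and 35.6 ± 7.30 for H2-Ob (limma adjusted p = 0.00388).

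The H2-DM genes differed among themselves. H2-DMa, the alpha chain gene of the exchange factor, ranked high in every library, from 96.6 in fed liver to 99.3 in fed heart, and its strongest summit lay 135 to 186 bp upstream of a start in all 16. H2-DMb2 was at 95.3 in fed and 93.0 in fasting spleen, and lung was at 91.8 and 81.9. It was at 28.8 and 20.7 in kidney and 33.4 and 39.95 in liver. H2-DMb1 was highest in white adipose, at 92.8 and 94.3, and lowest in heart, at 9.83 and 35.8. In spleen the differences were 35.8 ± 6.05 for H2-DMb2 (limma adjusted p = 0.00128) and 17.4 ± 5.50 for H2-DMb1 (limma adjusted p = 0.0318).

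Both spleen libraries lay above all 14 others for 3 class II genes (H2-Oa, H2-DMb2 and H2-Eb2) and 2 class I genes (H2-M10.6 and H2-M5), and for 9.32% of all genes. The calls of H2-DMb2 and H2-Ob in spleen were made under every alternative run. That of H2-Eb2 was made under each one that tested it, as the filter of a peak in at least 8 libraries left it out. The H2-Oa call was lost only under ranking by fold enrichment, which left 3 of the 9 class II genes called. The calls of H2-Aa (adjusted p = 0.0537 without brown adipose and 0.0521 without kidney) and H2-DMb1 (0.0553 without heart and 0.0797 without liver) were lost in the limma fit when 1 tissue was left out, and that of H2-Ab1 with a window of 1000 bp.

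**Figure D2:**
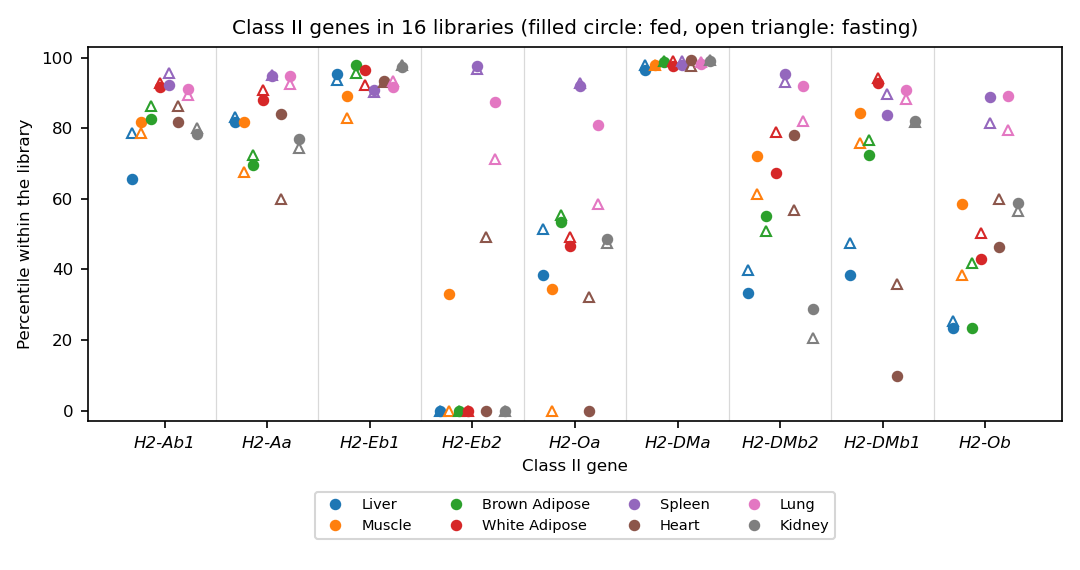
Percentile within the library (y axis, 0 to 100) of the 9 class II genes (x axis) in 8 tissues (colours), with filled circles for fed and open triangles for fasting libraries, each point being 1 library. The purple spleen points lie at 81.5 or above for all 9 genes, while H2-Eb2 is at 0 in 10 libraries and H2-DMb1 is lowest in heart.

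In lung 4 of 9 class II genes were called higher (5.43% of all genes) and none lower (2.76%). They were H2-Eb2 (59.5 ± 11.3, limma adjusted p = 0.0128), H2-Ob (34.7 ± 7.30, limma adjusted p = 0.0184), H2-DMb2 (27.5 ± 6.05, limma adjusted p = 0.0220) and H2-DMb1 (20.7 ± 5.50, limma adjusted p = 0.0458). The H2-DMb2 call was lost without kidney (limma adjusted p = 0.0719), and that of H2-DMb1 without brown adipose (0.0635), kidney (0.0558) or liver (0.0881). Ranked among promoters only, all 4 lung calls were lost (limma adjusted p = 0.0911 for H2-Eb2, 0.0998 for H2-Ob, 0.180 for H2-DMb2 and 0.192 for H2-DMb1). In liver 6 of 9 were called lower (27.1% of all genes) and none higher (14.3%). H2-Ob, at 23.4 and 25.3, H2-DMb1, at 38.4 and 47.4, and H2-Ab1, at 65.6 and 78.5, were called under every alternative run. H2-Eb2, H2-DMa and H2-DMb2 were the others, and the H2-DMb2 call was lost at equal depth. The calls of H2-Eb2 (0.145 without lung and 0.200 without spleen) and H2-DMa (0.0506 to 0.0774 without spleen, lung, brown adipose or kidney) were lost in the limma fit with 1 tissue left out.

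Lists of immune cell markers, like the class II median, were highest in spleen. Elsewhere they did not always go together. In white adipose, where the class II median was 88.0 and 90.9, the B cell mean was 41.0 and the T cell mean 35.7. The macrophage and dendritic cell mean there was 53.7, below only that of spleen (66.3). The part of immune cells in the class II differences was not tested. Of 6 B cell markers 4 were called higher in spleen (16% of all genes) and 3 in lung (5.43%). The mean percentile of the list was 91.4 in spleen, 77.7 in lung and 28.9 to 44.4 in the other tissues. Ms4a1, which encodes the B cell surface protein CD20, had a peak in 4 libraries, those of spleen and lung. Of 6 T cell markers 5 were higher in spleen and 1 in lung, with list means of 87.5 in spleen, 66.5 in lung and 17.9 to 39.98 elsewhere. Of 6 macrophage and dendritic cell markers 4 were higher in spleen and none in lung, with list means of 66.3 in spleen, 53.7 in white adipose, 48.4 in heart, 43.7 in lung and 16.1 to 35.1 in the other tissues. C1qa, a macrophage complement gene, had no peak in spleen or lung.

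Of 11 other genes of the class II pathway, 2 were called higher in spleen and 2 lower, shares near the 16% and 18.2% of all genes. Ciita, the class II transactivator, was at 92.6 (fed) and 86.6 (fasting) in spleen, 82.6 and 77.6 in lung, and 72.8 and 76.6 in kidney. It was at 0 in fasting muscle and fed brown adipose (spleen difference 40.4 ± 11.2, limma adjusted p = 0.0180). Ctss, which encodes the protease cathepsin S that trims the invariant chain, was at 89.2 and 90.7 in spleen (difference 61.7 ± 12.1, limma adjusted p = 0.00300). Rfx5 and Nfyc, which encode subunits of the factors that bind the X and the Y box, were slightly lower there, by 2.91 ± 0.743 and 2.46 ± 0.642 points, and stood at 92.5 or above in all libraries. Cd74, the invariant chain gene, was at 86.0 and 86.3 in spleen and was not called there. It was at 87.7 and 81.1 in lung, 79.4 and 89.8 in white adipose, and 23.4 and 85.5 in liver. In brown adipose it was at 33.6 in fed and 0 in fasting. The other members (Lgmn, Rfxank, Rfxap, Creb1, Nfya and Nfyb) were at 88.7 or above in every library.

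The strongest peak was not always the one at the X and Y boxes. Summits within a window were joined into elements where neighbours lay within 150 bp, and 219 of the 346 strongest peaks of the H2 genes had a summit within 250 bp of a start. The highest-ranking element of H2-Eb1 lay inside the gene, with summits between 34309886 and 34310234 on chromosome 17, about 325 bp after the start of a retained-intron transcript. It was listed in all 16 libraries, at 82.8 in fasting muscle to 97.8 in fed brown adipose and fasting kidney, and at 90.7 and 88.5 in spleen. The element at the H2-Eb1 promoter, which spans the boxes printed above, was not listed in liver. It was at 89.2 and 92.1 in white adipose, 82.5 and 86.0 in spleen and 87.4 and 83.2 in lung, at 83.3 in fed and 65.9 in fasting muscle, and at 47.0 to 63.8 in brown adipose, heart and kidney. The internal element gave the gene's percentile in most libraries, but in fasting white adipose the promoter element was the stronger (92.1 against 91.7), and in fasting spleen another 720 bp after the 5′-most start was (90.4 against 88.5).

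H2-DMb2, H2-Oa, H2-Ob, H2-Aa and H2-Ab1 also had several elements. The H2-DMb2 element over its boxes, 1796 bp after the 5′-most start, was listed in 8 libraries, at 85.8 and 88.9 in spleen. The percentiles of H2-DMb2 in spleen (95.3 and 93.0) came from an element at -175 bp. The element over the H2-Oa boxes was listed at 82.0 and 73.8 in spleen and 67.5 and 1.06 in lung and nowhere else, and an element 323 bp after a start reached 91.8 and 92.7 in spleen, 80.8 and 58.6 in lung and 38.4 and 51.5 in liver. In adipose tissue and kidney the strongest H2-Oa peak lay at -1274 to -1263 bp from a start. H2-Ob had an element 11197 bp into the gene, 1636 bp after an internal start, in all 16 libraries, at 7.001 in fasting muscle to 88.9 in fed spleen, whereas the element at its boxes was listed in 9. For H2-Aa the promoter element was listed in all 16 libraries and ran from 60.0 in fasting heart to 95.0 in fasting spleen. A downstream H2-Aa element at 1719 bp was the stronger of the pair in liver (81.9 and 83.0 against 68.8 and 63.8). For H2-Ab1 the element 149 bp after the 5′-most start was listed in 12 libraries, at 85.5 and 80.7 in spleen, and not in liver. The H2-Ab1 percentiles in spleen came from an element 3997 bp into the gene. Those in liver came from elements at 7321 bp (fed) and 5523 bp (fasting).

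**Figure D3:**
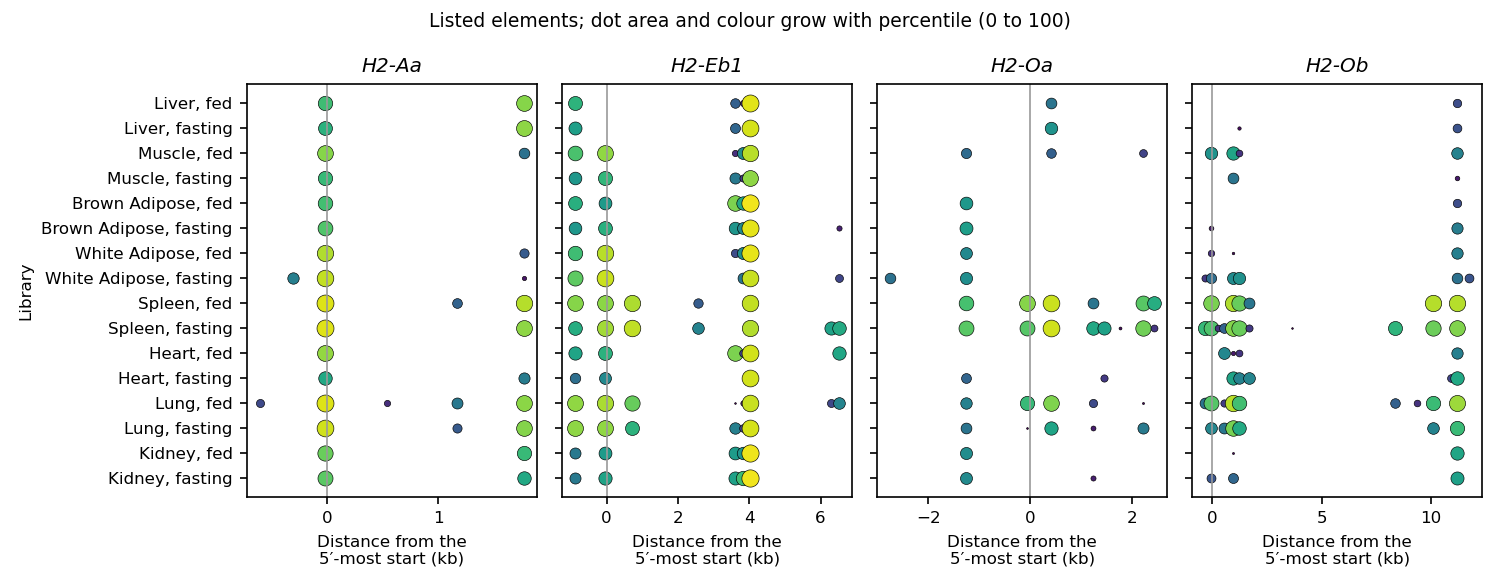
Listed elements of H2-Aa, H2-Eb1, H2-Oa and H2-Ob in 16 libraries (rows), plotted by distance in kb from the gene's 5′-most annotated start (x axis), with dot area and colour growing with the percentile from 0 to 100. The element of H2-Eb1 about 4 kb into the gene is present in all libraries, while the elements at the starts of H2-Oa and H2-Ob are largest in both spleen libraries and in fed lung.

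Of the class I genes 9 were open in all libraries, H2-Q2 and H2-Q10 were listed in 12 and 11, and the others in 6 or fewer. Class I promoters are known for an enhancer that binds NF-kappaB and interferon regulatory factors. The NF-kappaB core GGGGATTCC was found in 82 of 32851 windows (0.250%), among them H2-K1, H2-D1, H2-Q6 and H2-Q7. The interferon regulatory factor core GAANNGAAA was found in 7.52% of windows, and in 8 of the H2 genes (the 6 below, H2-M3 and H2-M2). The stretches below are aligned on that core, which on the gene's strand reads as its reverse complement. Capitals mark it and, where those exact letters occur, the NF-kappaB core. H2-Q4 and H2-Q10 lack the exact match and are shown for the differing letters in its place. H2-Q4 reads ggggatttcc there, and looser matches to an NF-kappaB site were not searched.
H2-K1: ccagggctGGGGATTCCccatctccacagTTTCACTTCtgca
H2-D1: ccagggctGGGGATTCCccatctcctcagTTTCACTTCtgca
H2-Q6: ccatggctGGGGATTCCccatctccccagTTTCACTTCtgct
H2-Q7: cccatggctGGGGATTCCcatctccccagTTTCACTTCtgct
H2-Q4: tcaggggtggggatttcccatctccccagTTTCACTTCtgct
H2-Q10: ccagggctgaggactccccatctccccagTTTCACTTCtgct
They lie before the RefSeq start at chr17:34000425-34000466 (minus strand), chr17:35262915-35262956, chr17:35424669-35424710, chr17:35439013-35439054, chr17:35379435-35379476 and chr17:35469905-35469946 (plus strand), in that order. By the GENCODE starts the H2-D1 stretch lies after the gene's 5′-most start. A summit lay within 250 bp of the capitals in all 16 libraries for the first 5 genes and in 10 for H2-Q10.

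H2-K1, a classical gene, was at 92.6 in fasting heart to 98.3 in white adipose, with a median of 97.4 over 16 libraries, and H2-D1, the other classical gene, was at 84.1 in fasting heart to 96.7 in fasting lung, with a median of 91.6. Neither was called in any tissue. The non-classical genes H2-Q4 (83.5 to 96.8), H2-Q6 (77.3 to 98.4), H2-Q7 (88.0 to 98.9), H2-T22 (88.2 to 97.7), H2-T24 (74.4 to 94.1), H2-T23 (67.6 to 96.2) and H2-M3 (79.5 to 96.7) were likewise listed in all libraries, as was H2-Ke6 (90.8 to 96.7). H2-T22, whose product is a ligand of gamma-delta T cell receptors, shared its peak with the neighbouring Gm6034, and H2-Ke6 shared its own with Slc39a7. Reads of near-identical genes may be placed uncertainly. Within 100 bases of the strongest summit, 50.7% of the 50-base words of H2-Q7 occurred again on chromosome 17, as did 34.2% for H2-T23, 29.6% for H2-M9, 26.3% for H2-Q6 and 21.7% for H2-T22, and none for the other 25 genes with a peak.

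In spleen 7 of the 20 class I genes tested (24 in all) were called higher and 1 lower, beside the 16% and 18.2% of all genes given above. Of genes open in all libraries, H2-T24 (11.3 ± 2.46, limma adjusted p = 0.00523), H2-Q6 (6.86 ± 2.02, limma adjusted p = 0.0233) and H2-M3 (5.41 ± 1.35, limma adjusted p = 0.0106) were higher there. The H2-Q6 call was lost without brown adipose (limma adjusted p = 0.0697) and that of H2-M3 without kidney (0.0593). H2-M10.6 (45.9 and 26.1 in spleen, 23.4 in fed liver, no peak elsewhere) and H2-M5 (21.5 and 26.1 in spleen, 17.1 or below elsewhere) rested on 14 and 13 summit tags or fewer in spleen. The H2-M10.6 call was lost at equal depth. The calls of H2-Q2 (0.0925 without brown adipose, 0.0943 without muscle) and H2-Q10 (0.0588 without lung, 0.0660 without muscle) were lost in the limma fit with 1 tissue left out, and so was the lower call of H2-Q1 (0.512 without liver, 0.0898 without lung). With peaks of q under 1e-06 alone no class I gene was called in spleen by limma, and 1 was higher at an unadjusted p under 0.05.

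Some class I genes ranked highest in a tissue other than spleen. H2-Q10 encodes a secreted class I molecule known from the liver. It was at 93.0 in fed and 94.1 in fasting liver, above the 14 other libraries, of which brown adipose (73.8 and 69.2) and spleen (64.6 and 68.9) came next and 5 listed no peak. H2-Q1 was at 68.8 and 67.6 in liver and 24.9 and 22.1 in lung, with no peak in the other 12 libraries. Liver differences were 66.5 ± 10.5 for H2-Q10 (limma adjusted p = 0.000726) and 64.9 ± 4.45 for H2-Q1 (limma adjusted p = 3.22e-06). H2-Q10 was called in liver under every alternative run. H2-Q1 was called under each one that tested it, as the filter of a peak in at least 8 libraries left it out.

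H2-M2 was at 69.9 in fed and 86.2 in fasting white adipose, where its summits held 65 and 53 tags and lay 609 and 495 bp after the start. The only other library with a peak was fed liver (38.4, 12 tags), and the white adipose difference was 75.3 ± 8.08 (limma adjusted p = 0.00101). H2-M10.5, of a family known from vomeronasal neurons, was at 56.5 and 67.4 in kidney, with 38 and 45 tags at a summit 1449 and 1453 bp after the start. It was at 34.97 in fasting liver and 21.5 in fed spleen and was not listed elsewhere (kidney difference 57.9 ± 8.15, limma adjusted p = 0.000847). No kidney peak of H2-M10.5 lay within 1000 bp of the start, so its call was lost with that window. The remaining genes were listed in few libraries, H2-T3 in 6 (at most 43.1), H2-M10.2 in 4 (at most 53.3), H2-M10.4 in fed spleen (21.5) and H2-M9 in fed heart (49.99).

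H2-T23, which encodes Qa-1, a ligand of natural killer cell receptors, was higher in liver by 9.73 ± 2.11 points (94.6 and 96.2; limma adjusted p = 0.00433) and lower in brown adipose by 17.7 ± 2.11 (67.6 and 75.1; limma adjusted p = 0.000560). In liver the strongest H2-T23 peak was an element at -2391 bp from the nearest start, also listed at 87.0 and 85.7 in kidney and otherwise only at 3.99 in fasting spleen. The element at the start ran from 56.2 in fasting brown adipose to 92.2 in fed lung. The liver call was lost with a window of 1000 bp. H2-M3, which presents N-formylated peptides, was lowest in kidney, at 81.3 and 79.5 against 85.9 to 96.7 elsewhere (difference -12.2 ± 1.35, limma adjusted p = 0.000178).

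Calls outside spleen were counted over the 30 H2 genes that were tested, with the share of all genes beside them. In liver 4 were higher (14.3% of all genes) and 7 lower (27.1%), and in lung 6 were higher (5.43%) and none lower (2.76%). In white adipose 4 were higher (6.43% of all genes) and none lower (3.79%), with H2-DMb1 (25.2 ± 5.50, limma adjusted p = 0.0208) called under every alternative run. In kidney 2 were higher (11.6%) and 5 lower (10.4%), among the lower ones H2-DMb2 (-43.6 ± 6.05, limma adjusted p = 0.000787). H2-Eb1 was called higher in kidney (5.07 ± 1.37) and lower in muscle (-8.25 ± 1.37). With starts of protein-coding transcripts alone both differences changed sign, to -17.8 in kidney (limma adjusted p = 0.0288) and 3.09 in muscle (limma adjusted p = 0.697). In heart 1 was higher (7.34%) and 2 lower (7.97%), and H2-DMb1 lay below all 14 other libraries (-55.7 ± 5.50, limma adjusted p = 0.000330). In brown adipose 1 was higher (6.83%) and 5 lower (11%), and in muscle none was higher (10.2%) and 8 were lower (12%), 6 of them class I genes. None of the muscle calls was made under every alternative run.

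The machinery that loads class I molecules was open in all tissues. All 18 listed genes had a peak in all 16 libraries, as 61.4% of all genes did, at 75.8 (Psmb8, an immunoproteasome subunit, in fasting liver) or above. B2m, the light chain of class I molecules, was at 87.9 in fed liver to 98.3 in fasting brown adipose. In spleen, where 16% of all genes were called higher and 18.2% lower, 2 were called higher, Irf1 (6.53 ± 1.37) and Irf2 (1.69 ± 0.556), which encode interferon regulatory factors. Another 5 were lower, namely the peptide transporter genes Tap1 (-2.36 ± 0.696) and Tap2 (-4.49 ± 1.03), Psmb9, which shares a peak with Tap1, Psme2 (-4.17 ± 0.427) and Tapbp (-3.27 ± 0.511). Nlrc5, the class I transactivator, was at 90.1 in fasting muscle to 99.3 in fed liver.

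Fasting was compared with feeding across the 8 tissues, and no H2 gene was called. None of the 30 tested members passed an adjusted p of 0.05 in limma, and 0.0% of all genes did. None was under an unadjusted p of 0.05 either, where 4.58% of all genes were, and the lowest adjusted p of a member was 0.838. An exact sign-flip permutation test over the 8 tissues, which cannot give a two-sided p below 0.0078125, also called none, with none of the members under an unadjusted 0.05. The mean over tissues of the change in median percentile was -2.28 points (SD 9.87, n = 8 tissues) for class II and 0.1015 (SD 16.9, n = 8) for class I, whose sign differed between alternatives. The class I median turns on how many of its genes were listed in a library.

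Within a tissue the feeding states are 1 library against 1, with no test. A difference of at least 20 points is given as a description. The share of genes with a peak in either state that moved this far was 12.9% for spleen, 5.76% for lung, 15% for liver, 3.75% for kidney, 12.6% for heart, 5.87% for muscle, 11.1% for white and 8.03% for brown adipose. Of the H2 genes it was 4 of 27 for spleen, 1 of 23 for lung, 4 of 27 for liver, 2 of 22 for kidney, 8 of 23 for heart, 3 of 20 for muscle, 3 of 22 for white and 1 of 20 for brown adipose.

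The heart had the most. H2-Eb2 (49.2) and H2-Oa (32.1) were listed in fasting heart only, H2-Aa was at 83.9 in fed and 60.0 in fasting, H2-DMb2 at 78.0 and 56.9, and H2-DMb1 at 9.83 and 35.8. With libraries thinned to equal depth, 5 of the 8 heart differences remained at 20 points or more. Those of H2-Oa, H2-Eb2, H2-Q10 and H2-M9 set a listed peak against none, and thinning cannot add a peak. Among the rest, listed in both states, only H2-DMb2 kept its difference (68.7 in fed and 20.6 in fasting). The differences of H2-Aa (78.2 and 74.6), H2-DMb1 and H2-Q2 fell below 20 points. The class II genes moved in no common direction in heart, since 5 were higher and 4 lower in fasting.

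In muscle all 9 class II genes were lower in the fasting library, with a median difference of -10.9 points, beside -0.0565 over all genes. All genes together had higher medians in muscle (88.9 in fed, 88.5 in fasting) than the class II genes (81.7 and 67.6). The all-gene differences given here and for liver are therefore not matched for rank. Of the 10 class I genes with a peak in muscle 9 were lower as well, with a median difference of -2.32 points. H2-Oa (34.5) and H2-Eb2 (33.2) were listed in fed muscle only, and H2-Ob was at 58.5 in fed and 38.4 in fasting. The fasting muscle library was the deeper of the pair, with 10.6 against 6.39 background tags. Its list also ended at a higher lowest −log10 p, 4.65 against 3.45 in fed. Thinning to equal depth cannot add an unlisted peak, so the 0 of H2-Oa and H2-Eb2 in fasting muscle was fixed beforehand. H2-Ob, listed in both states, was at 58.0 in fed and 35.8 in fasting muscle after thinning. The part of depth in the muscle differences was not tested. In lung 7 of 9 class II genes were lower in fasting, with a median difference of -2.55 points, and only H2-Oa (80.8 and 58.6) moved by 20. There 9 of 13 class I genes with a peak were lower too. In liver 7 of 8 class II genes with a peak were higher in fasting, by a median of 4.23 points and by 13.1 at most (H2-Oa, 38.4 and 51.5), beside -0.0174 over all genes.

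Among the class I genes H2-Q2 moved by 20 points in 4 tissues, falling in liver (61.6 to 25.3) and white adipose (73.4 to 32.2) and rising in heart (9.83 to 64.0) and kidney (32.2 to 63.0). Its strongest summit lay at a different distance in each state, for example 909 bp after the start in fed and 2837 bp in fasting white adipose. The others were H2-Q10, H2-T3, H2-M2, H2-M9, H2-M10.2, H2-M10.4, H2-M10.5 and H2-M10.6, each with 25 summit tags or fewer in the tissue where it moved. Neither H2-K1 nor H2-D1 moved by 20 points in any tissue.

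**Figure D4:**
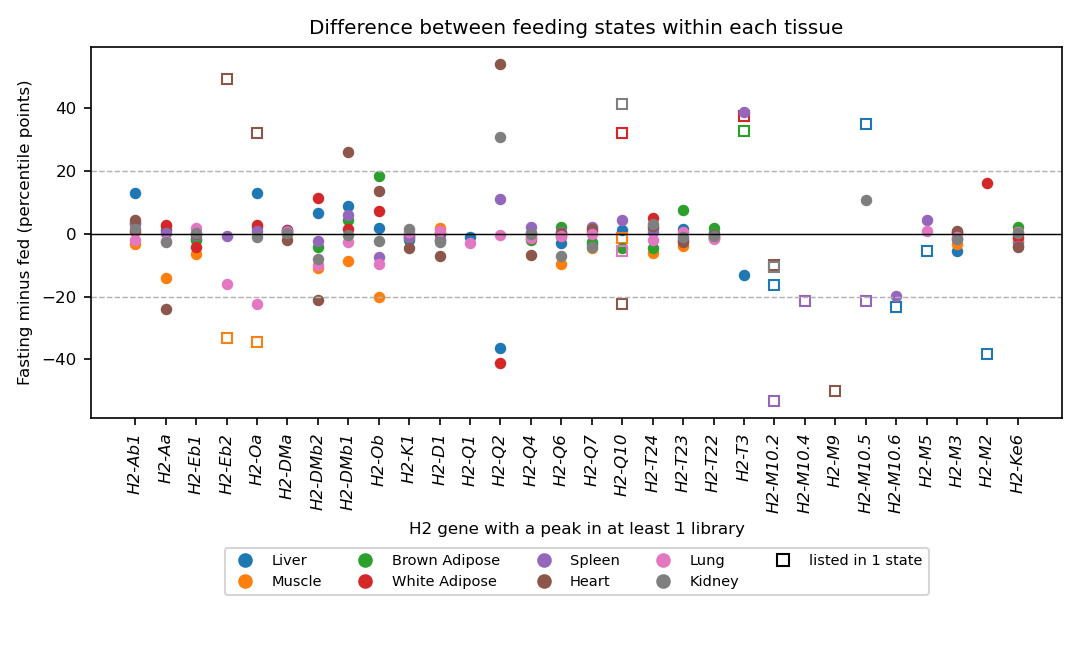
Fasting minus fed percentile (y axis, points) for each of the 30 H2 genes with a peak in at least 1 library (x axis) within 8 tissues (colours), with open squares where a gene was listed in 1 state only and dashed lines at 20 points. H2-K1 and H2-DMa stay near 0, H2-Q2 passes 20 points in 4 tissues, and of the genes listed in all libraries H2-DMb1, H2-Aa and H2-DMb2 do so in heart and H2-Ob in muscle.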

How the data were processed

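ATAC-seq had been run on 16 pooled libraries, 1 for each of 8 tissues in fed or fasting mice. The authors aligned reads to GRCm38 with Bowtie2, removed duplicate and mitochondrial reads and called peaks for each library with MACS2 at a permissive p-value, keeping the strongest peaks outside blacklisted regions. The deposited lists give each peak's fold enrichment, a ratio over local background, and its p-value and q-value as −log10. They are not scaled between libraries, so peaks were ranked within each list by −log10 p. Each gene of GENCODE vM21 (the study used a later release) took the highest percentile among summits within 3000 bp of its annotated starts, or 0. Summit tags were solved from the deposited ratio and −log10 values, which also gave the lists thinned to equal depth. Thinning could drop a listed peak but not add one.

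Percentiles of 19719 genes with a peak in at least 1 library were fitted with limma 3.58.1 in R 4.3.3 (tissue and state as terms, trend and robust prior), each tissue was compared with the mean of the other 7, and p-values were adjusted by Benjamini-Hochberg over all genes at 0.05. Fed and fasting were also compared by an exact two-sided sign-flip permutation test over tissues. Every gene named H2- was a member, with values in full for those with a peak in spleen or in at least 8 libraries. Members and lists were chosen with earlier results of these data known. Alternatives were peaks of q under 0.01 or 1e-06, ranking by fold, windows of 1000 and 250 bp (the last added after seeing the data), protein-coding transcript starts, percentiles among promoters, equal depth, limma without trend or robust prior, a peak in at least 8 libraries, and each tissue left out. Python 3.11.15 was used for the rest.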

Additional observations from a re-analysis of the deposited data

How the results depend on the processing

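Over 10 results and their alternatives, 9 values moved by over 1.5 times (counts) or over 1 SD between tissues (medians), and 156 did not. Below that limit values still changed. The class II median difference of spleen was 10.34 points ranked by fold and 31.4 at q under 1e-06, against 20.67. The fasting minus fed mean of class II, -2.276, was -10.12 at q under 1e-06, and that of class I, 0.1015, was -7.293 with a 1000 bp window and -5.951 at equal depth. With peaks of q under 1e-06 alone, 4 class II and 0 class I genes were called higher in spleen by limma in place of 7 and 7. By limma 1 class I gene was higher at an unadjusted p under 0.05. Under that cut 10 H2 genes had no peak in any library in place of 4. The class I median in spleen minus the other tissues was then -0.6209 points in place of 19.07. A class I median turns on how many of the 24 genes were listed, being 0 in fed muscle (10 listed) and 49.6 in fed spleen (17 listed). It does not describe a shift of the whole class. Ranked by fold, 3 class II and 4 class I genes were higher in spleen, and calls of H2 genes higher in another tissue were 10 in place of 18. The cause was not tested. With each tissue left out in turn, class II genes higher in spleen numbered 6 to 7, class I genes 5 to 9, and calls in another tissue 10 (without kidney), 11 (without lung) to 22 (without spleen). Over these the class II median difference of spleen was 15.95 to 23.4 points, and the fasting minus fed means were -4.472 to -0.03384 for class II and -4.486 to 2.949 for class I. No H2 gene was called with fasting by limma or the sign-flip test in 19 alternatives. The fit and the sign-flip test already pair the fed and fasting libraries of a tissue, and the labels give no replicate numbers for another pairing. Depth was lowest in liver (2.80 and 2.82 background tags) and spleen (3.20 and 3.35), and summits of 20 tags or fewer also entered the heart, kidney and adipose lists.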
